A study of Homo sapiens with 8 samples.

Results

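G4 ChIP-seq peaks that held no G-quadruplex motif of short G runs and short loops, within 100 bp on either side, were collected from the K562 and HepG2 maps. Longer loops or a wider flank completed a motif in most of them, as given below. A GG motif was taken as 4 runs of at least 2 G separated by loops of 1 to 7 bases, searched on both strands. A peak was kept when it was at least 100 bp wide, lay outside the mitochondrial chromosome, and held no GG motif after its hg19 sequence was extended by 100 bp on each side. This left 182 peaks of the 18010 high-confidence intervals in both lists together, 37 in K562 and 145 in HepG2. Of the peaks wide enough to be scanned, these were 37 of 7841 in K562 (0.472%, 95% Wilson interval 0.343 to 0.650) and 145 of 6721 in HepG2 (2.16%, 1.84 to 2.53).

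K562 cells were established from a chronic myelogenous leukemia and HepG2 cells from a hepatocellular carcinoma, and the labels name no treatment for either. For each line the labels give 3 libraries precipitated for G4 and 1 input. A stretch of the genome entered the high-confidence list when 5 of 8 replicate peak sets (K562) or 6 of 9 (HepG2) contained it, and the lower-confidence list when 2 did. By the study's methods these replicates are technical repeats of 3 independent experiments per line, while the series text calls the 3 libraries technical replicates. An interval comes with its position alone, so depth and the spread between replicates are unknown, and every p-value below describes peaks of these lists rather than biological replicates.

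A G-quadruplex (G4) is a multi-stranded fold of G-rich DNA in which runs of guanines on the same strand pair into stacked tetrads, and the bases between the runs form loops. Longer runs and shorter loops are known to make the fold more stable. BG4, the antibody fragment used for G4 ChIP-seq, binds the folded structure, and sonicated chromatin fragments around it are recovered with it.

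The sequences themselves show how these peaks look. In the first group, runs of at least 2 G and of at least 2 C, which are G runs of the opposite strand, are in capitals. The RAD51B intron peak is shown because it was found in both lines, the NPSR1-AS1 peak for the lowest GC content, the H3C2 peak as a promoter, and the TTC34 and RPTOR peaks as tandem repeats. Runs of G are present in all of them, but no 4 lie close enough together on the same strand.
RAD51B intron, K562 (chr14:68762279-68762396, plus strand): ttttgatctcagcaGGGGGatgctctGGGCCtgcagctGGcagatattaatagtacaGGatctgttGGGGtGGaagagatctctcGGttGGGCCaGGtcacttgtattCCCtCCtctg
NPSR1-AS1 start, HepG2 (chr7:34797965-34798066, plus strand): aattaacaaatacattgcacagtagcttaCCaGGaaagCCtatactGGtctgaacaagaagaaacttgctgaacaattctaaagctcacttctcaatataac
H3C2 start, HepG2 (chr6:26032353-26032490, plus strand): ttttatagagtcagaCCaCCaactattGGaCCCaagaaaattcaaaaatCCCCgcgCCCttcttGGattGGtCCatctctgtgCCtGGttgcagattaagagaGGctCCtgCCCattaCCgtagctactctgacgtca
TTC34 intron, HepG2 (chr1:2585275-2585456, plus strand): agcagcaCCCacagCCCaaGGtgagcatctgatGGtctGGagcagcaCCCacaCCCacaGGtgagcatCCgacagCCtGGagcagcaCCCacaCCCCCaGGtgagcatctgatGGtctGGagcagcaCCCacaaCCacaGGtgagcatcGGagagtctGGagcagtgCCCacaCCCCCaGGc
RPTOR intron, HepG2 (chr17:78602799-78603016, plus strand): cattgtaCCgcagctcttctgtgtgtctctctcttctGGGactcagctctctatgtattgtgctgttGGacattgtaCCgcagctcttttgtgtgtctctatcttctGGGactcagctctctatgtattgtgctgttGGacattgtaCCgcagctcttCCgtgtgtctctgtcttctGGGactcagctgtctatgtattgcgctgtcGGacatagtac

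The second group shows a HepG2 and a K562 peak from different chromosomes that resemble each other, read on the strand on which they align. Capitals mark a FOXA recognition word, TGTTTAC or else TGTTTGC on either strand.
LEPR intron, HepG2 (chr1:65933276-65933512, plus strand): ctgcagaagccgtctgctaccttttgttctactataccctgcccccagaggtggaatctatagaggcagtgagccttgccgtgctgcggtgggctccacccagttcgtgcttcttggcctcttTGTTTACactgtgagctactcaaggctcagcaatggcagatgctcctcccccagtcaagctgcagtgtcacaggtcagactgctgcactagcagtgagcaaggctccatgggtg
CYP3A51P intron, K562 (chr7:99291131-99291380, plus strand): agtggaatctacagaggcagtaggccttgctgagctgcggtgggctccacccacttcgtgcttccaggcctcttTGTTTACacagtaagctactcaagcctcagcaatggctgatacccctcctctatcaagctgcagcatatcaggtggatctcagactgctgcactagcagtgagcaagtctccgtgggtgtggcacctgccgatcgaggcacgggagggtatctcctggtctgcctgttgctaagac

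Peaks without a GG motif were more frequent in HepG2 than in K562, with an odds ratio of 4.65 (95% interval 3.24 to 6.68, two-sided Fisher's exact test, Benjamini-Hochberg adjusted p = 2.72e-20 over the 11 tests made). Within classes of 50 bp of peak width the odds ratio was 4.31 (3.00 to 6.20). Peaks with a GG motif had a lower median GC content in HepG2 than in K562 (65.8% against 70.5%). Of all peaks scanned, 73.0% in HepG2 and 82.6% in K562 touched the 1 kb upstream of a transcription start site. The contrast was not computed within classes of GC content or position. The lists were merged with different replicate requirements in the lines, so line and list rule cannot be told apart.

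Most of these peaks held 4 GG runs once loops longer than the limit were allowed. How often other sequence of like length and GC content does so was not tested. In K562, 20 of the 37 held 4 GG runs once a loop of 8 bases was allowed, and 34 of 37 (91.9%) did so with loops of up to 12 bases. In HepG2, 40 of the 145 were completed by a loop of 8 bases and 129 (89.0%) by loops of up to 12. The farthest from a motif were the RPTOR intron peaks, which needed loops of 38 and 27 bases, an intergenic HepG2 peak 125804 bp from the TSS of RHOU with 20, and the K562 peak in POT1 with 18. On the other side of the definition, 36 of the K562 and 74 of the HepG2 peaks with a GG motif would have lost it had the longest loop been 6 bases.

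**Figure D1:**
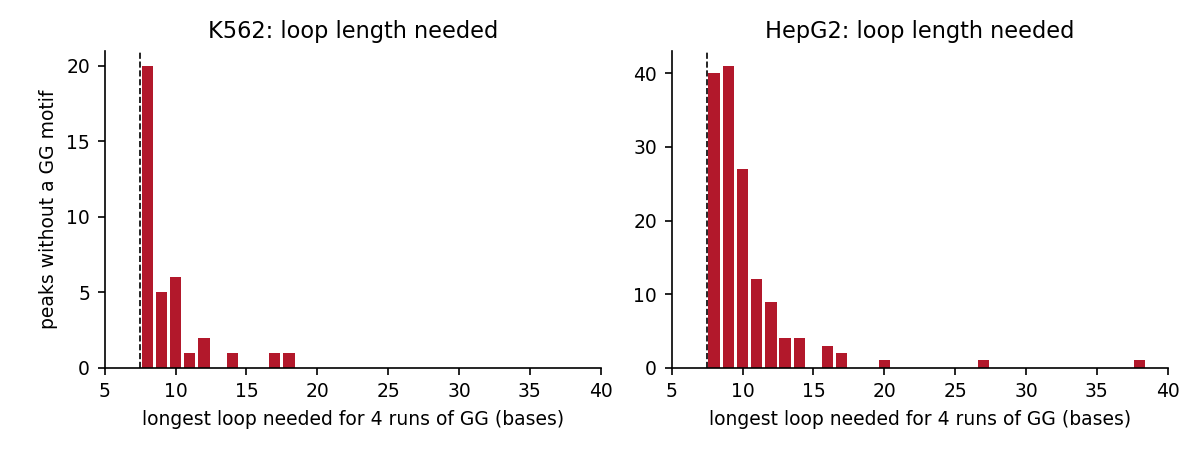
The longest loop, in bases, that had to be allowed before the extended sequence of a peak without a GG motif held 4 runs of at least 2 G, for 37 K562 (left) and 145 HepG2 peaks (right). The dashed line marks the limit of the definition, and most peaks lie between 8 and 10 bases, with the RPTOR peaks alone at 27 and 38.

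The 100 bp of flank also set who was counted. A GG motif was first completed at a median extension of 170 bp in K562 (lowest 103, highest 1432) and 177 bp in HepG2 (lowest 102, highest 3669). Within 500 bp a GG motif was reached by 34 of 37 and 136 of 145 peaks. The stricter motif, with runs of at least 3 G, was reached within 500 bp by 5 of 37 K562 and 18 of 145 HepG2 peaks. Whether other sequence of like length and GC content reaches either motif as often was not tested. Just outside the rule, 7 HepG2 and 0 K562 peaks with a GG motif had it only in the last 5 bases of the flank, among them peaks nearest to ST14, PTK7 and MPRIP that were completed at 99 bp and one nearest to IGLL1 at 100 bp. Each peak lies within a wider lower-confidence interval. That interval itself held a GG motif for 4 of 37 K562 and 13 of 145 HepG2 peaks. With the 100 bp of flank added to that interval, the counts were 17 of 37 (45.9%) and 65 of 145 (44.8%).

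Peaks without a GG motif had less G and C than the others, which the sequence rule itself favours, so their composition is given without a test. The median GC content was 56.2% in K562 (lowest 41.6, highest 69.8) against 70.5% for the 7804 peaks with a GG motif. In HepG2 it was 52.4% (lowest 35.3, highest 72.3) against 65.8% for the 6576 others. Only 1 HepG2 peak, in the coding exon of KLHL31, exceeded the median of its line's other peaks, and 0 did so in K562. CpG dinucleotides were also scarcer, with a median observed-to-expected ratio of 0.256 against 0.847 in K562 and 0.242 against 0.766 in HepG2. Among peaks touching the 1 kb upstream of a transcription start site it was 0.528 against 0.877 in K562 and 0.541 against 0.835 in HepG2. Elsewhere it was 0.140 against 0.498 in K562 and 0.209 against 0.293 in HepG2. G runs were not absent: a run of at least 3 G or C lay in all 37 K562 and in 142 of 145 HepG2 peaks, and one of at least 4 in 30 and 94. The richer strand carried a median of 6.49 GG runs per 100 bp in K562 and 6.15 in HepG2, against 9.89 and 9.02 in the other peaks. The peaks were also narrower, with a median width of 150 bp in K562, where the others had 215 bp, and 146 bp in HepG2, where the others had 204 bp. A wider interval offers more sequence in which a motif can lie.

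**Figure D2:**
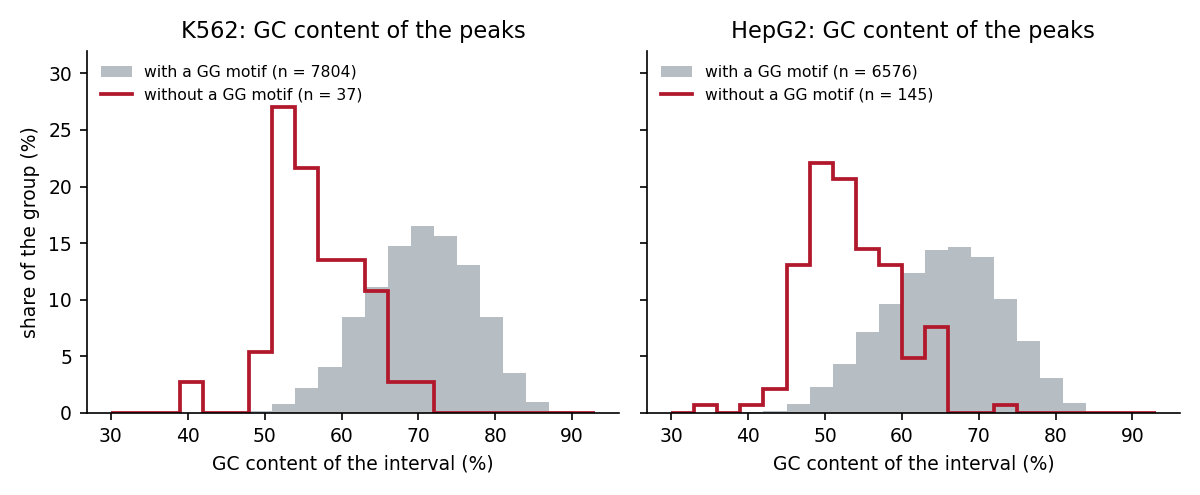
GC content of the interval in percent (x axis) against the share of each group in percent (y axis), in bins of 3 points, for K562 (left) and HepG2 (right). Red outlines are peaks without a GG motif and grey areas the other peaks of at least 100 bp. The red outlines centre near 56.2% and 52.4% and the grey areas near 70.5% and 65.8%.

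The lowest GC contents in HepG2 were found at the start of NPSR1-AS1 (35.3%), in an intron of CNPY2-AS1 close to CS (41.3%), the citrate synthase gene, in DIRC3 (44.3%), in FZD4-DT (44.4%) and in RB1CC1 (44.6%), an autophagy gene. None of these 5 overlapped a high-confidence K562 peak, which only 11 of all 145 did. The FZD4-DT peak overlapped a lower-confidence K562 interval. In K562 the lowest were POT1 (41.6%), a gene of the telomere-protecting shelterin complex, CR1L (48.7%) and DNAJC6 (49.1%), followed by an intergenic peak 53926 bp from the TSS of LSM3 (51.1%) and one in a noncoding exon nearest to HAPSTR1 (51.7%). The POT1 peak was also the widest of K562 at 320 bp, on chr7:124503424-124503743, and the next GG motif was completed 1432 bp out.

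Promoter positions were rarer among these peaks. In K562, 14 of 37 (37.8%, 95% Wilson interval 24.1 to 53.9) touched the 1 kb upstream of a transcription start site (TSS), against 82.9% of the other peaks and 82.6% of all K562 peaks scanned (odds ratio 0.126, 95% interval 0.0646 to 0.245, Fisher's exact test, adjusted p = 1.90e-09). In HepG2, 32 of 145 (22.1%, 16.1 to 29.5) did so, against 74.1% of the other peaks and 73.0% of all (odds ratio 0.0990, 0.0666 to 0.147, Fisher's exact test, adjusted p = 1.04e-37). The odds ratios of the lines did not differ beyond their intervals (HepG2 over K562 0.786, 0.362 to 1.71). Compared within classes of 5 points of GC content, the difference shrank to an odds ratio of 0.852 (0.390 to 1.86) in K562, where the interval reached 1, and 0.598 (0.392 to 0.914) in HepG2.

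Introns took the larger part instead. The centre lay in an intron for 15 of 37 K562 peaks (40.5%, 26.3 to 56.5), against 9.61% of the others and 9.76% of all K562 peaks (odds ratio 6.41, 3.31 to 12.4, Fisher's exact test, adjusted p = 8.86e-07). In HepG2 this held for 75 of 145 (51.7%, 43.7 to 59.7), against 16.1% of the others and 16.9% of all (odds ratio 5.59, 4.01 to 7.79, Fisher's exact test, adjusted p = 3.80e-22). Within the GC classes the odds ratios were 1.33 (0.634 to 2.80) in K562 and 1.47 (1.03 to 2.09) in HepG2. A further 6 K562 peaks (16.2%, against 4.84% of the others) and 31 HepG2 peaks (21.4%, against 7.16%) were intergenic. The median distance from a peak centre to the nearest TSS of any kind was 2945 bp in K562 and 8381 bp in HepG2. For the other peaks it was 77 and 107 bp. Centres over 10 kb from any TSS were 10 of 37 in K562 (27.0%, against 3.75% of the others) and 65 of 145 in HepG2 (44.8%, against 6.89%).

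**Figure D3:**
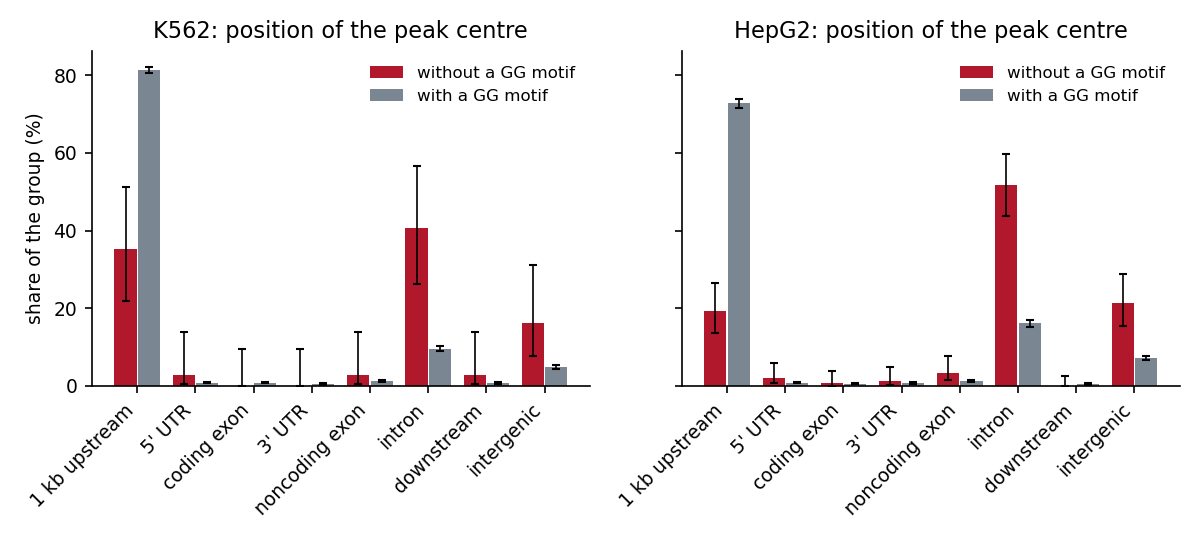
Share of peaks in percent (y axis) by the annotation at the peak centre (x axis), for K562 (left) and HepG2 (right), peaks without a GG motif in red and the other peaks in grey, with 95% Wilson intervals. Introns hold 40.5% and 51.7% of the red peaks, and the 1 kb upstream of a TSS holds most of the grey ones.

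The widest HepG2 peaks without a GG motif, named next, lay outside the 1 kb upstream of a TSS. So did 113 of all 145, while a peak of 284 bp nearest to TLE7 touched it. Median width was similar in both positions, 149 bp for HepG2 peaks touching the upstream 1 kb and 146 bp elsewhere. The widest of all, 416 bp on chr20:52740163-52740578, was intergenic and 48121 bp from the closest coding TSS, that of CYP24A1, which encodes the vitamin D 24-hydroxylase. It was followed by the larger RPTOR intron peak (376 bp), a TTC34 intron peak (304 bp), an intergenic peak 13185 bp from PFDN4 (292 bp), which encodes a prefoldin subunit, and one in an intron of TTI1 (287 bp). After POT1, the widest K562 peaks were those in CYP3A51P and in PTPRJ, a receptor-type tyrosine phosphatase (both 250 bp), near LSM3 (229 bp) and in DNAJC6 (220 bp).

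Coding promoters were touched by 9 of 37 K562 peaks (24.3%, against 74.4% of the others) and 20 of 145 HepG2 peaks (13.8%, against 66.9%). They were those of 9 genes in K562 and 23 in HepG2, 4 of them shared. The sharing of promoter genes among the other peaks was not computed. The widest of these K562 peaks were at UBE2T, the ubiquitin-conjugating enzyme of the Fanconi anaemia pathway (197 bp), IFITM3, an interferon-induced restriction factor (193 bp), ELAVL1, the RNA-binding protein HuR (162 bp), PNN (160 bp) and EID2B (144 bp). In HepG2 they were at ENY2 (250 bp), C9orf64 (206 bp), UBE2T (197 bp), ATG3, an autophagy gene whose start lies beside that of SLC35A5 (195 bp), and NEDD9, a focal adhesion scaffold (187 bp). Among the other HepG2 genes were UBE2C, an enzyme of the anaphase-promoting complex pathway, H3C2, a histone H3 gene, and SPATA2. Counting all peaks that touched the 1 kb upstream of any TSS, noncoding ones included (14 in K562 and 32 in HepG2), their median GC content was higher than that of the rest, 60.3% against 56.0% in K562 and 55.4% against 52.0% in HepG2.

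In both lines, the position was occupied less often in the other line than for peaks with a GG motif. Of the K562 peaks, 10 of 37 (27.0%, 15.4 to 43.0) overlapped a HepG2 high-confidence peak by at least 1 bp, against 56.2% of the other peaks and 56.1% of all (odds ratio 0.289, 0.140 to 0.597, Fisher's exact test, adjusted p = 4.00e-04). Against the HepG2 lower-confidence list it was 17 of 37 (45.9%, 31.0 to 61.6), with 79.2% of the others and 79.0% of all (odds ratio 0.224, 0.117 to 0.428, Fisher's exact test, adjusted p = 1.04e-05). Of the HepG2 peaks, 11 of 145 (7.59%, 4.29 to 13.1) had a partner in the K562 high-confidence list, compared with 61.8% of the others and 60.6% of all (odds ratio 0.0508, 0.0274 to 0.0941, Fisher's exact test, adjusted p = 1.14e-41). Against the K562 lower-confidence list it was 23 of 145 (15.9%, 10.8 to 22.7), with 72.7% of the others and 71.4% of all (odds ratio 0.0709, 0.0453 to 0.111, Fisher's exact test, adjusted p = 2.82e-44).

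The difference in sharing was computed again among peaks of like position or composition. Outside the upstream 1 kb, 4 of 113 HepG2 peaks without a GG motif (3.54%) and 17.9% of the others had a K562 high-confidence partner, and upstream the shares were 7 of 32 (21.9%) and 77.1%. Over these strata the HepG2 odds ratio was 0.125 (0.0619 to 0.251), and within GC classes 0.463 (0.249 to 0.862). In K562 the shares were 4 of 23 (17.4%) against 26% outside and 6 of 14 (42.9%) against 62.4% upstream, with an odds ratio over the strata of 0.524 (0.243 to 1.13). Within GC classes the K562 odds ratio was 0.796 (0.355 to 1.78), and for the lower-confidence list it was 1.41 (0.636 to 3.10), so that in K562 the lower sharing was not detectable among peaks of like GC content.

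**Figure D4:**
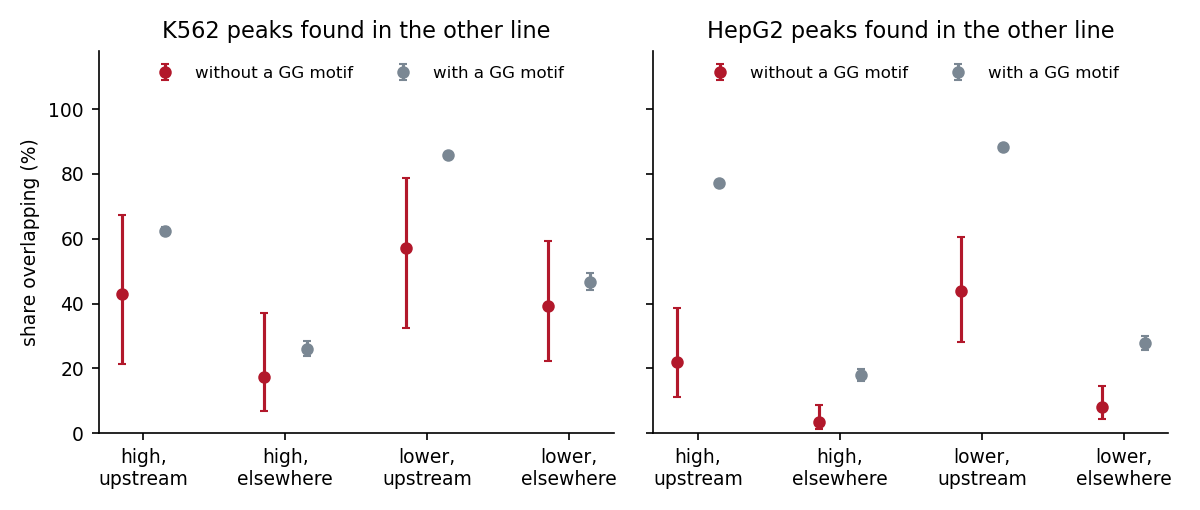
Share of peaks in percent (y axis) that overlapped a high-confidence peak or a lower-confidence interval of the other line (x axis), split by whether the peak touched the 1 kb upstream of a TSS, for K562 (left) and HepG2 (right), with 95% Wilson intervals. Peaks without a GG motif (red) stand below the other peaks (grey) in every pair, and in K562 their intervals are wide, with 4 of 23 and 6 of 14 peaks behind the high-confidence bars.

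Peaks without a GG motif overlapped each other between the lines at 7 places, which are 7 of 37 K562 and 7 of 145 HepG2 peaks. At coding promoters these were UBE2T, EID2B, ABCC10, a multidrug transporter of the ABC family, and ZNF484, a zinc finger gene. In introns they were LEPR, the leptin receptor gene (chr1:65933363-65933478 in K562), RAD51B, a gene of homologous recombination, and U2SURP, a splicing gene that shares the position with PAQR9-AS1. The shared stretch ran from 92 bp at ZNF484 (K562 peak chr9:95640340-95640460) to 188 bp at UBE2T (chr1:202311057-202311253). In K562 these 7 had GC contents between 52.5% at RAD51B and 64.3% at ABCC10 (chr6:43395200-43395342), and in HepG2 between 54.7% and 63.1% at the same places. Of the other 3 K562 peaks with a HepG2 high-confidence partner, at PNN, upstream of MPRIP and in CTSB, the partner held a GG motif in every case, for MPRIP only at 99 bp of flank. For the other 4 HepG2 peaks the K562 partner held one at TOMM20 and PLEKHO1, and held none at NEDD9 and ENY2, where it was narrower than 100 bp.

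The nearest coding genes numbered 37 in K562 and 128 in HepG2, with 7 in common (18.9% and 5.47% of each list), all at the shared places. For peaks with a GG motif they numbered 6183 and 5216, with 3738 in common (60.5% and 71.7%). These lists are far longer, so the shares are not comparable without allowing for list length, which was not tested. In HepG2 8 genes were nearest to more than 1 of the peaks, led by MMEL1, the coding gene closest to the peaks in TTC34, with 9 and NEDD9 with 4. Those at NEDD9 were 1 at its promoter and 3 in introns over chr6:11219116-11368168. FOXA2, a pioneer factor of hepatocytes, was the nearest coding gene of 2 HepG2 peaks, at 72472 and 50369 bp. None of the 47 liver secreted and metabolic genes or 20 hepatocyte transcription factors listed had a peak without a GG motif within 10 kb of a TSS in HepG2, while 19 and 7 of them had some G4 peak there. Of 36 erythroid genes and 23 blood lineage transcription factors in K562 the counts were 0 and 0, against 17 and 12 with some peak. Peaks without a GG motif made up 2.16% of the HepG2 and 0.472% of the K562 peaks scanned. With so few genes, counts of 0 therefore say little about these lists. Of 34 immediate-early and stress genes, 2 had such a peak in HepG2 and 0 in K562, while 27 and 29 had any peak. These were DNAJB1, an HSP40 co-chaperone, with the peak 1706 bp upstream of the TSS, and DUSP1, a phosphatase of MAP kinases, with the peak 4474 bp upstream.

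Most HepG2 peaks without a GG motif stood alone, since 115 of the 125 blocks of 1 Mb with any such peak held 1. The fullest block was chr1:2000001-3000000 with 9 of the 145, followed by chr6:11000001-12000000 with 4. In K562 the only block with more than 1 was chr1:65000001-66000000, with 2. By chromosome, 21 of 389 HepG2 peaks on chromosome 6 (5.40%), 15 of 342 on chromosome 20 (4.39%), 3 of 74 on chromosome 18 (4.05%) and 21 of 626 on chromosome 1 (3.35%) held no GG motif, against 2.16% over all. Without the fullest block, chromosome 1 had 12 of 610 (1.97%).

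All 9 peaks of the fullest block lay in an intron of TTC34, between chr1:2583673 and 2629295, and they were copies of the same repeat. They aligned to the widest of them with 85.6 to 90.9% identity, and letters recurred at a spacing of 40 bases or its multiple of 80. Their GC content was between 58.9 and 65.4%, above the HepG2 median of these peaks, and loops of 9 or 10 bases completed a GG motif in all 9. Of the 9, 4 lay in 1 lower-confidence interval of 1242 bp and are therefore not separate places. K562 had 0 high-confidence and 9 lower-confidence intervals in the TTC34 gene, 2 of which overlapped these peaks, against 12 and 29 in HepG2. The gene also contains a stretch of 50000 unknown bases in hg19, from 2634221 to 2684220, and whether reads of the repeat were placed correctly was not tested. The RPTOR pair, in the gene of an mTORC1 subunit, was another tandem repeat, with a spacing of 70 bases and a match of 93.9 and 93.1%. Tandem repeats with a match of at least 80% made up 7 of 145 HepG2 and 0 of 37 K562 peaks, against 9 of 6576 and 8 of 7804 of the others.

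Dispersed repeats were found as well. When each pair of peaks was aligned, 65 of 16464 pairs scored at least 45, with the next highest score at 33. These pairs include those among the TTC34 copies and the RPTOR pair, which are not dispersed. The largest group beside TTC34 joined 8 peaks at 7 places, in K562 those in LEPR and CYP3A51P, and in HepG2 those in LEPR, ATF7IP2 and NEDD9 introns and near BTNL8, PPARD and ADGRG6. They aligned to the HepG2 LEPR peak with 73.5 to 85.5% identity over 100 to 193 bases, apart from the K562 LEPR peak at the same place. Another group joined HepG2 peaks in EFCAB2, near FREM1 and near LDLRAD4, and a further one those near TMEM17 and NME1. Of peaks with a GG motif, 2 in K562 and 7 in HepG2 resembled the LEPR peak as closely. For the EFCAB2 peak these counts were 0 and 1, and for the TMEM17 peak 0 and 13. Reads from such copies can be hard to place, and this was not tested.

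Recognition sequences of transcription factors were looked up in 300 bp around each centre, on both strands, and are a description of letters only. The words were TGACTCA for AP-1 together with its other form TGAGTCA, and TGACGTCA for the CRE. GATA was searched as AGATAAG, and FOXA as TGTTTAC. The other FOXA form was TGTTTGC. The C/EBP words were TTGCGCAA, TTGCACAA and TTACGTAA. For HNF4 the word was CAAAGTCCA. They were CCAATCA and also CCAATGG for NF-Y, GCGCATGC for NRF1, AAGATGGCG for YY1, CCGGAAGT for ETS, CACGTG for the E-box, GGGCGGG for SP/KLF, and AGGTGGCAG and AGGGGGCAG for CTCF. None of the 19 words lies within a word of another factor.

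A FOXA word lay in 45 of 145 HepG2 windows (31.0%, 24.1 to 39.0), against 8.93% of the other HepG2 peaks and 7.17% of 35116 RefSeq promoters of 300 bp (GRCh38.p14). Among HepG2 peaks outside the upstream 1 kb it was 39 of 113 (34.5%) against 19.7% of the others. FOXA factors are pioneer factors of liver cells. In K562, 2 of 37 windows held a FOXA word (5.41%), those of LEPR and CYP3A51P, both copies of the dispersed repeat in which all 8 members had one. Without the peaks in repeat groups, the share was 36 of 123 in HepG2 (29.3%, 22 to 37.8) and 0 of 35 in K562 (0%, up to 9.89). AP-1 words, bound by FOS and JUN proteins, lay in 7 of 37 K562 (18.9%) and 28 of 145 HepG2 windows (19.3%), against 5.69% and 6.01% of the others and 4.95% of the promoters. Outside the upstream 1 kb, the others held one in 16.3% of K562 and 13.3% of HepG2 windows, and the peaks without a GG motif in 26.1% and 20.4%. SP/KLF words, which hold GG runs themselves, were found in 4 of 37 and 7 of 145 windows, against 68.7% and 54.8% of the others and 33.1% of the promoters. The HNF4 word, of another liver factor, lay in 1 of 145 HepG2 windows (0.690%) against 1.51% of the others, and outside the upstream 1 kb in 0.885% against 3.99%. The GATA word is that of the GATA factors, which include the erythroid GATA1. It lay in 9 of 145 HepG2 windows (6.21%) against 1.99%, and in 1 of 37 K562 windows (2.70%) against 2.73%. Outside the upstream 1 kb it lay in 9 of 113 HepG2 windows (7.96%) against 4.40%, and in 1 of 23 K562 windows (4.35%) against 10.2%. The remaining factors were each found in at most 16 of 145 HepG2 and 5 of 37 K562 windows. NF-Y words lay in 16 HepG2 windows (11%) against 22.6% of the others, and in 2 K562 windows (5.41%) against 19.3%. Among peaks outside the upstream 1 kb this was 10 of 113 (8.85%) against 10.7% in HepG2, and 0 of 23 against 10.6% in K562. E-boxes lay in 7 HepG2 windows (4.83%) against 11.8%, and in 5 K562 windows (13.5%) against 10.7%. Their shares outside the upstream 1 kb were 5.31% against 9.45% in HepG2 and 8.70% against 8.82% in K562. C/EBP words lay in 5 HepG2 windows (3.45%) against 1.2%, and in 2 K562 windows (5.41%) against 0.474%. For these words the shares outside the upstream 1 kb were 3.54% against 2.35% in HepG2 and 8.70% (2 of 23) against 0.523% in K562. CTCF words lay in 0 HepG2 windows against 2.69%, and in 1 K562 window (2.70%) against 2.47%. CRE, NRF1, YY1 and ETS words lay in 1, 5, 0 and 4 HepG2 and 0, 2, 0 and 1 K562 windows. These shares were below those of the others, for NRF1 in K562 only slightly (5.41% against 6.01%). Among HepG2 peaks outside the upstream 1 kb the counts were 0, 1, 0 and 0 of 113. The others there had 0.587%, 1.59%, 0.352% and 0.763%. In K562 outside the upstream 1 kb, ETS was the more frequent (1 of 23, 4.35%, against 1.12%). Counts this small do not settle a difference. The words differ in base composition, and the part of GC content in these shares was not tested.

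**Figure D5:**
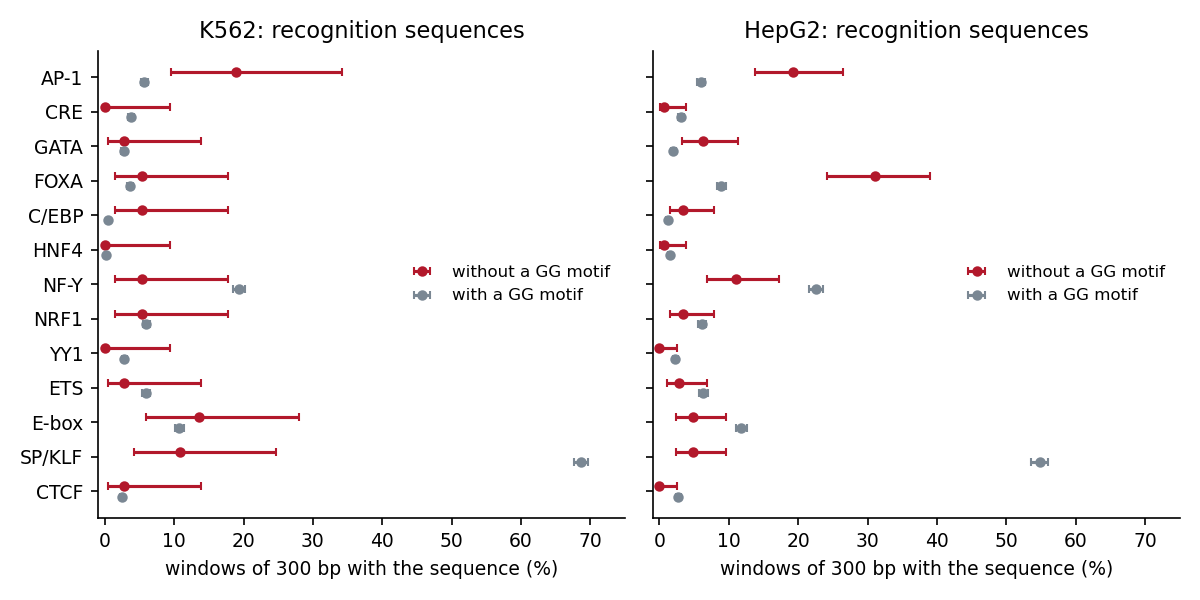
Share of 300 bp windows in percent (x axis) that held a recognition sequence of each factor (y axis), for K562 (left) and HepG2 (right), peaks without a GG motif in red and the other peaks in grey, with 95% Wilson intervals. FOXA stands at 31.0% in HepG2 and 5.41% in K562, and SP/KLF at 54.8% and 68.7% for the grey peaks.

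Intervals of higher confidence lacked a GG motif less often. Among K562 lower-confidence intervals of at least 100 bp, those that enclosed a high-confidence interval lacked a GG motif in 29 of 8711 cases (0.333%), and those that did not in 222 of 7999 (2.78%, odds ratio 0.117, 0.0794 to 0.173, Fisher's exact test, adjusted p = 9.81e-42). In HepG2 the counts were 121 of 8280 (1.46%) and 716 of 13798 (5.19%, odds ratio 0.271, 0.223 to 0.329, Fisher's exact test, adjusted p = 7.49e-50). Intervals enclosing a high-confidence one are wider, and within 50 bp classes of width the odds ratio was 0.414 (0.260 to 0.659) in K562 but 0.915 (0.717 to 1.17) in HepG2, where the interval reached 1.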

How the data were processed

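Reads were adapter-trimmed by the authors (cutadapt) and mapped to hg19 with BWA, the build also named in the submitters' processing notes. Duplicates were removed, MACS2 was run per replicate with a q-value limit of 0.05, and the replicate peak sets were merged with bedtools multiinter. The deposited files give interval positions only, so depth is unknown, no replicate could be compared, and p-values measure how peaks of these lists fall into classes. The chromatin was treated with RNase A before precipitation. Labels name 3 ChIP libraries and 1 input per line.

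Sequences were read from GRCh37, and genes from GENCODE version 44 lifted to that build. Peaks were members when they met the rule stated at the opening, and 29 mitochondrial HepG2 intervals and intervals under 100 bp (1364 in K562, 2055 in HepG2) were left out. Members and gene lists were chosen with earlier results of these data known. Overlap means at least 1 bp. Shares have 95% Wilson intervals, which cover counting only. Groups were compared with two-sided Fisher's exact tests, with log-scale intervals of the odds ratio and Benjamini-Hochberg adjustment over 11 tests, and with Mantel-Haenszel odds ratios within classes of width (50 bp) or GC content (5 points). Ratios of odds ratios used a normal approximation on the log scale.

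Peaks named are the 5 widest, the 5 of lowest GC content, up to 5 in both lines (all 7 are given here), the 5 widest at coding promoters, those within 10 kb of a listed gene, the fullest blocks of 1 Mb, and those nearest the definition. The alignment of peaks to each other (match 1, mismatch -1, gap opening -2, gap extension -1), the search for tandem repeats (lags of 10 to 100 bases), the chromosomes and genes with several peaks, and the peaks named for these or for the longest loops were chosen after seeing the data. Motif search, overlaps and intervals were tested on simulated data. Python 3.11.15, numpy 2.4.6, scipy 1.17.1, pysam 0.24.0, Biopython 1.88, samtools 1.23.1 and matplotlib 3.10.9 were used. Alternatives tried were other widths, flanks, loops, TSS sets and overlap rules. The sequences of some peaks are not reported here.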

Additional observations from a re-analysis of the deposited data

Results flagged for a closer look

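The lower sharing of peaks without a GG motif was more marked in HepG2 than in K562 over all peaks. For high-confidence partners, the HepG2 odds ratio was 0.176 times that of K562 (95% interval 0.0678 to 0.456), and for lower-confidence partners 0.317 times (0.144 to 0.698). Within classes of 5 points of GC content these ratios were 0.582 (0.210 to 1.61), an interval that reaches 1, and 0.386 (0.151 to 0.988). Within 50 bp classes of width they were 0.139 (0.0545 to 0.356) and 0.265 (0.121 to 0.579). None was adjusted for the number of contrasts, and the lines' values use the same pairs of peaks from either side. The odds ratio of lacking a GG motif for intervals that enclose a high-confidence one was 2.32 times as high in HepG2 as in K562 (1.5 to 3.57), but 1.34 times (0.851 to 2.1) within GC classes, where the interval reaches 1, and 2.21 times (1.31 to 3.74) within width classes. The lines differ in how many replicates their lists require. The stratified ratios were computed after seeing the data.

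On the mitochondrial chromosome, which was left out, HepG2 had 29 high-confidence intervals and K562 had 0, while the lower-confidence lists held 20 and 18. Of the 29, 27 were at least 100 bp wide and 4 of these held no GG motif.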

How the results depend on the processing

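The number of peaks without a GG motif follows its definition. In K562 the 37 became 19 with a minimum width of 150 bp, 67 without a minimum, 350 without the flank, 16 with 200 bp of flank and 3 with loops of up to 12 bases, and in HepG2 the 145 became 69, 297, 679, 65 and 16. The median GC content fell to 53.6% and 51.0% when the flank was included. In K562, within GC classes, the odds ratios of upstream position (0.852), intron position (1.33) and sharing with a high-confidence peak (0.796) kept their direction but had intervals that reached 1, and that of sharing with a lower-confidence interval turned to 1.41. With loops of up to 12 bases and so only 3 K562 peaks, intron position (4.63) and sharing with a high-confidence peak (0.112) or lower-confidence interval (0.133) missed the threshold. Sharing of K562 peaks with a high-confidence peak also had an interval that reached 1 within width classes (0.513) and within upstream and other peaks (0.524), the latter tried only once the data had been seen. In HepG2 the difference by confidence was lost within width classes (0.915). Of 138 alternative values, 114 kept their direction and side of the threshold or, for counts, stayed within 1.5 times, among them those without the chromosome that held the most of these peaks and, added after seeing the data, without the fullest block of 1 Mb. No paired analysis was possible because the lists merge the replicates, and for the same reason no replicate could be left out.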

Other observations

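Peaks under 100 bp were not scanned in the report. With the same flank, 30 of 1364 such intervals in K562 and 152 of 2055 in HepG2 held no GG motif.

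The spacing to neighbours was not tested. The median gap to the nearest other high-confidence interval was 38367 bp in K562, against 24559 bp for peaks with a GG motif, and 33011 bp in HepG2, against 27091 bp. Within 1000 bp of another interval lay 2 of 37 K562 peaks (5.41%, against 18.7%) and 19 of 145 HepG2 peaks (13.1%, against 13.3%).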
